A study of Mus musculus with 15 samples.

Results

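The genes described are 42 markers of neutrophils and macrophages, read in T cell lymphomas and normal T cells of the mouse. They were taken as a fixed list of names: proteins of neutrophil granules (with calprotectin, of the cytosol, and Chil3 counted among them), receptors of neutrophils, monocytes and macrophages, lysosomal proteins of phagocytes, genes of resident macrophages including the Kupffer cells of the liver, and 3 transcription factors of the myeloid lineage. Of the 42, 40 had a probe set of their own among the 18193 genes on the array. Retnlg and Ly6c1 had none that was listed with a single symbol, and they are not analysed here. A filter on low values (a signal of at least 100 in at least 3 of 15 arrays) left 36 of the markers among 11902 genes for testing. Cxcr2, Cd163, Clec4f and Timd4 did not pass it and are given by their values alone. Lcn2, Elane, Mmp8, Mmp9, Csf3r, Clec4e, Marco and Vsig4 reached a signal of 100 in lymphoma arrays only. S100a8, S100a9, Camp, Ltf, Mpo, Chil3, Clec4d, Cd14, Mrc1, Spi1 and Cebpa reached it in too few normal arrays to pass without lymphoma arrays. Of the granule genes, only Ngp would have passed on normal arrays alone. All these other markers passed the filter with the help of lymphoma arrays, so they had little room for a lower call in lymphomas.

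Each of the 15 samples was one array. The 9 lymphomas (mPTCL 1 to 9) were peripheral T cell lymphomas that grew in CD3KO mice, which have no T cells of their own, after transfer of p53KO T cells (C57BL/6), and the lymphoma cells were sorted from the liver. The normal samples, 3 resting and 3 activated in vitro, were T cells of p53 KO mice on the C57BL/6 background at 5 weeks of age. Thus p53, a transcription factor that halts or kills damaged cells, was missing from the normal T cells and from the transferred T cells. Normal cells were sorted from liver or spleen, with the organ not given per sample, and their growth protocol describes repeated injections of PBS or of heat-killed pneumococci (Streptococcus pneumoniae) without saying which donors had them. The labels give no age for the lymphomas and no cell surface gate for any sort. Recipients that lack CD3 still have their own neutrophils, monocytes and macrophages. The labels do not tie replicates to different mice, and a p-value here weighs only the scatter of the arrays at hand, some of which may be technical.

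Values are the deposited signals on the log2 scale, with signals under 32 raised to 32, so that 5 is the floor. A change is a difference in mean log2 signal, and a gene was called higher or lower at an adjusted p under 0.05 in limma with a change of at least 2-fold. The precision is limited by the number of arrays. Arrays of one normal group correlated at 0.968 to 0.976, and lymphoma arrays at 0.761 to 0.924, across the genes tested. The SD of a typical marker was 0.57 among resting, 0.35 among activated and 2.09 among lymphoma arrays, against 0.23, 0.19 and 0.60 for a typical gene. Cd3e, a subunit of the T cell receptor complex, was between 11.04 and 11.60 in the normal arrays and between 9.03 and 12.28 in 7 lymphomas, but at 5.69 in mPTCL 3 and at the floor in mPTCL 4. Those 2 arrays go against the T cell label by this gene, and results are given with and without them. By the mean of 9 T cell identity genes, mPTCL 5 (8.99) lay below mPTCL 3 (9.30) and above mPTCL 4 (8.81). It stayed in when those 2 were left out. A software version is stated for the lymphoma arrays alone, so any batch it stands for and the difference between lymphomas and normal cells cannot be told apart. In bulk RNA, fewer cells of a type and less RNA per cell cannot be told apart either.

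Neutrophils, monocytes and macrophages are phagocytes of the myeloid lineage. Neutrophils are born in the bone marrow, where their precursors fill azurophil granules (myeloperoxidase, elastase) first and specific and gelatinase granules (lactoferrin, lipocalin, metalloproteinases) later, so that mature neutrophils hold granule proteins whose mRNA was made earlier. Macrophages depend on the receptor Csf1r, and the liver holds a resident population, the Kupffer cells, which clear particles, complement-coated cells and iron from the blood. The factors PU.1 (Spi1) and the C/EBP proteins (Cebpa, Cebpb) switch on many of these genes.

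The promoters of 8 markers are shown here because the results below turn on how these genes differ between lymphomas: S100a8 for calprotectin, Ngp and Ltf for granule proteins, Elane for the azurophil granules, Lyz1 and Lyz2 because the array cannot part them, C1qb for the macrophage genes read in the resting T cell samples, and Cd163 because it was high in 1 lymphoma only. Each line gives the 250 bases before the transcription start, from RefSeq on build GRCm38.p6, read 5′ to 3′ on the gene's strand. The windows lie at chr3:90668821-90669070 (plus strand), chr9:110419558-110419807 (plus), chr9:111019042-111019291 (plus), chr10:79886062-79886311 (plus), chr10:117292869-117293118 (minus), chr10:117282273-117282522 (minus), chr4:136886201-136886450 (minus) and chr6:124304401-124304650 (plus). Capitals mark matches on either strand to a C/EBP motif, TTGCNNAA, or a PU.1 motif, AGGAAGT.
S100a8: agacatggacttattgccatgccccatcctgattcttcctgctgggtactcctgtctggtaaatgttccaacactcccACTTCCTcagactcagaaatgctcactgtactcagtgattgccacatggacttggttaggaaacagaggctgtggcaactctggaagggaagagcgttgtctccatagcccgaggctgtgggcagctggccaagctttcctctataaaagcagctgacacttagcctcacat
Ngp: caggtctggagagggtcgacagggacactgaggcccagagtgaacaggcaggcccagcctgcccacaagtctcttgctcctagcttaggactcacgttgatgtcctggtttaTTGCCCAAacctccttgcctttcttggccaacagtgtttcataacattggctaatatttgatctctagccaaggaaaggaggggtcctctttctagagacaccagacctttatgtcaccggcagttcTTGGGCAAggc
Ltf: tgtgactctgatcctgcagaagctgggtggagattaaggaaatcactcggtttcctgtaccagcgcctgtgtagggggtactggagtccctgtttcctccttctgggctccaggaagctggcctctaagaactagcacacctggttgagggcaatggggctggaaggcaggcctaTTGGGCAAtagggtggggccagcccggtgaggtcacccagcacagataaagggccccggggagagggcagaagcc
Elane: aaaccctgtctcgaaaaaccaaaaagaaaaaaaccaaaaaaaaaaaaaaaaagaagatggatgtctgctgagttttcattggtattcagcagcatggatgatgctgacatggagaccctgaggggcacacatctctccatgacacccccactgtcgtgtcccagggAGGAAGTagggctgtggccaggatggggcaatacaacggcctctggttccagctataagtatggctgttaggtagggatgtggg
Lyz1: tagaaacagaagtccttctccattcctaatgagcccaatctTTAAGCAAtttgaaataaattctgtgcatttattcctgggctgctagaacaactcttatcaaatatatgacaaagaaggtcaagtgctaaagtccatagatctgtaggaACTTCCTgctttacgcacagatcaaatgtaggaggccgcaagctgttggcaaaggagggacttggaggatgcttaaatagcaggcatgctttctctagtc
Lyz2: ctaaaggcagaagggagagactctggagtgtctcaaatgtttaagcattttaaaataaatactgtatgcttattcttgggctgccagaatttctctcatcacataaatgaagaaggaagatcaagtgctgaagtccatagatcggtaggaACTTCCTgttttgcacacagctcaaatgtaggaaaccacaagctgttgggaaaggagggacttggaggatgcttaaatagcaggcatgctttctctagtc
C1qb: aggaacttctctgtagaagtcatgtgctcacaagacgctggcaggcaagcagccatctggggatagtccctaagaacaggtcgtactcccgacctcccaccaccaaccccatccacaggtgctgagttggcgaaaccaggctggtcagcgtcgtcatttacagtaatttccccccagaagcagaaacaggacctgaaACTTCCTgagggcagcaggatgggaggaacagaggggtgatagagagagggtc
Cd163: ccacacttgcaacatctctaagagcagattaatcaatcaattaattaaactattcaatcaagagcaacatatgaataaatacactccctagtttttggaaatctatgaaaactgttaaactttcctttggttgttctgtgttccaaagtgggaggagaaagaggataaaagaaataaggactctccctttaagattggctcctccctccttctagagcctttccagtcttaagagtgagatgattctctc

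The S100a8, Elane, Lyz2 and C1qb windows each hold 1 match to the PU.1 letters. Ltf has 1 C/EBP match and Ngp has 2, while Lyz1 has 1 of each kind. The Cd163 window has neither. Lyz1 and Lyz2 are neighbouring copies of the lysozyme gene, and their windows share an unbroken run of 50 bases. Over windows of 300 bases, which add 50 bases after the start, 32 of the 42 markers had an entry. The C/EBP letters were found in 9 of them and the PU.1 letters in 12, against 12.2% and 10.7% of all 27018 genes with a window. A match is a run of letters and was not tested as a binding site.

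**Figure D1:**
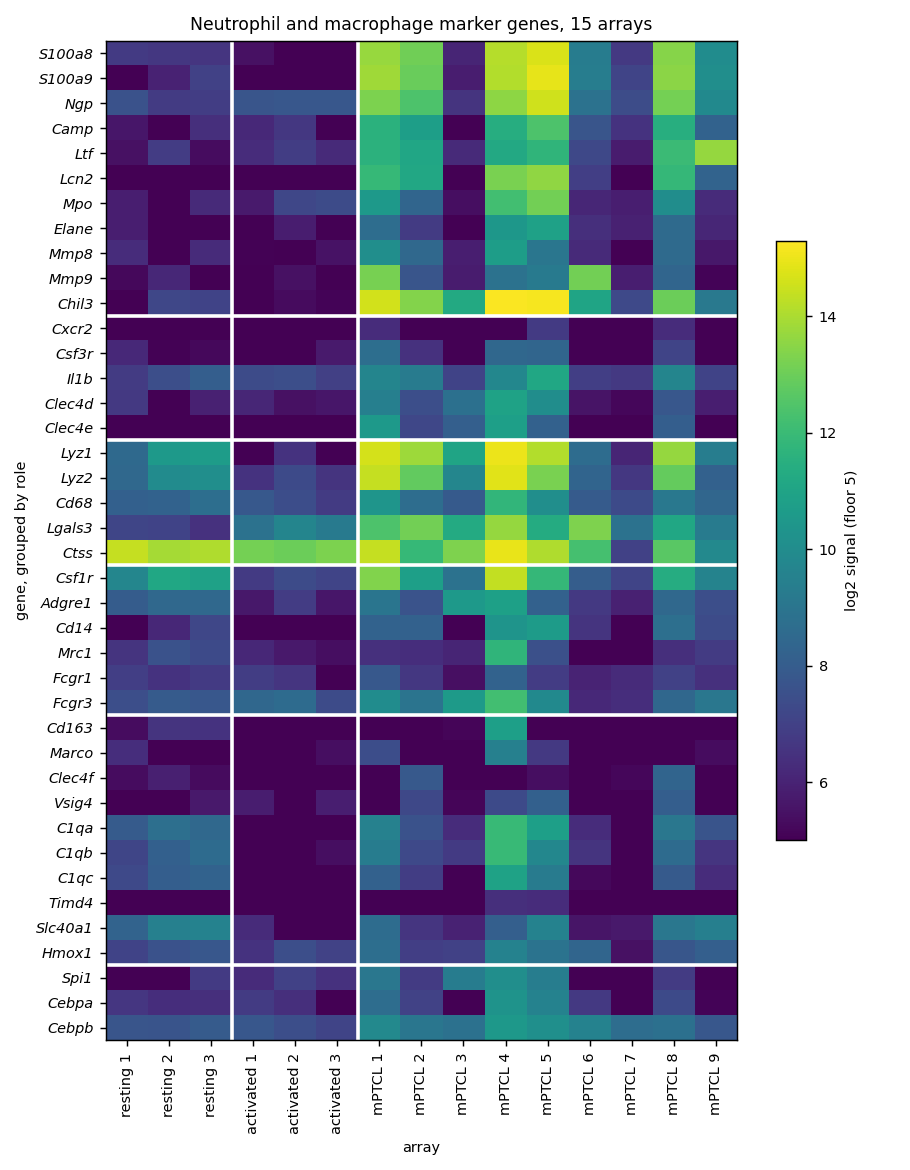
Log2 signal (colour, floor 5) of the 40 markers on the array (rows, grouped by role) in each of the 15 arrays (columns; resting T cells, activated T cells and lymphomas, parted by white lines). The granule genes at the top are bright in mPTCL 1, 2, 4, 5 and 8 and dark in mPTCL 3 and 7, and the normal arrays are dark for them.

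The first question was which lymphomas carried RNA of these markers beyond any normal T cell sample. For each lymphoma, the markers at least 4-fold above the highest of the 6 normal arrays were counted, beside the share of all 18193 genes that passed the same line. In mPTCL 4 there were 31 of 40 markers (77.5%, against 3.16% of all genes), in mPTCL 5 there were 23 (57.5%, against 2.26%) and in mPTCL 1 there were 19 (47.5%, against 2.25%). In mPTCL 8 the count was 16 (40.0%, against 1.86%) and in mPTCL 2 it was 12 (30.0%, against 1.56%). Smaller counts were found in mPTCL 3 with 6 (15.0%, against 1.61%), mPTCL 6 with 5 (12.5%, against 1.73%) and mPTCL 9 with 5 (12.5%, against 1.96%). None of the markers passed the line in mPTCL 7 (against 1.17%). These counts are a description of 9 single arrays, with no test, and the genes of one cell type are not independent of each other.

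The roles of the markers differed between these lymphomas. All 11 granule genes were at least 4-fold above normal in mPTCL 1, 4, 5 and 8, and 8 of them were in mPTCL 2, 5 in mPTCL 9, 4 in mPTCL 6 and 1 in mPTCL 3. Of the 10 genes of tissue macrophages and Kupffer cells, by contrast, 5 passed the line in mPTCL 4, 2 in mPTCL 5 and 2 in mPTCL 8, and none in the other 6 lymphomas. Of 6 receptors of monocytes and macrophages, 5 passed in mPTCL 4, 2 in mPTCL 3 and 1 each in mPTCL 1 and 5. The 6 markers that passed no line in any lymphoma were Cxcr2, Timd4, Fcgr1, Ctss, Slc40a1 and Hmox1.

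**Figure D2:**
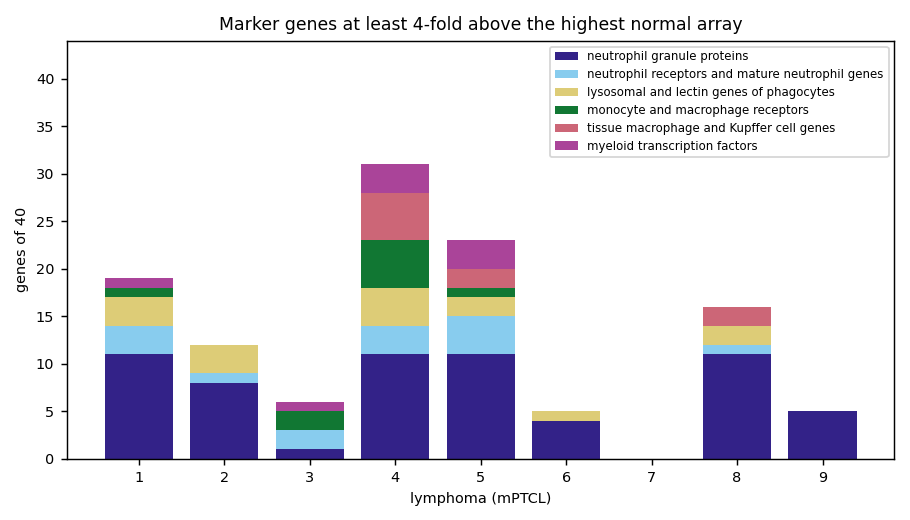
Number of markers (y axis, of 40 on the array) that lay at least 4-fold above the highest of 6 normal arrays in each lymphoma (x axis), stacked by role. The counts run from 0 in mPTCL 7 to 31 in mPTCL 4, and the granule proteins make up all 5 of mPTCL 9 but 1 of the 6 in mPTCL 3.

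As a mean over the 11 granule genes, the normal arrays lay between 5.59 and 6.07. The lymphomas were at 12.67 (mPTCL 5), 12.29 (mPTCL 4), 12.10 (mPTCL 1), 11.26 (mPTCL 8), 10.56 (mPTCL 2), 8.41 (mPTCL 9), 8.39 (mPTCL 6), 6.22 (mPTCL 7) and 6.18 (mPTCL 3). Every lymphoma was thus above the normal arrays in this mean, the last 2 by less than the SD of the activated arrays (0.18). Gene by gene this did not hold for those 2. In mPTCL 3 only 1 of the 11 genes, Chil3, was above the highest normal array, and in mPTCL 7 only 3 were. The mean of the 10 tissue macrophage genes ordered the arrays in another way. Resting arrays had 6.82 ± 0.30 (SD, n = 3), activated arrays 5.33 ± 0.07 (n = 3) and lymphomas 6.78 ± 1.28 (n = 9), with mPTCL 4 at 9.15 and mPTCL 5 at 7.99, and 4 of 9 lymphomas above the highest normal array.

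**Figure D3:**
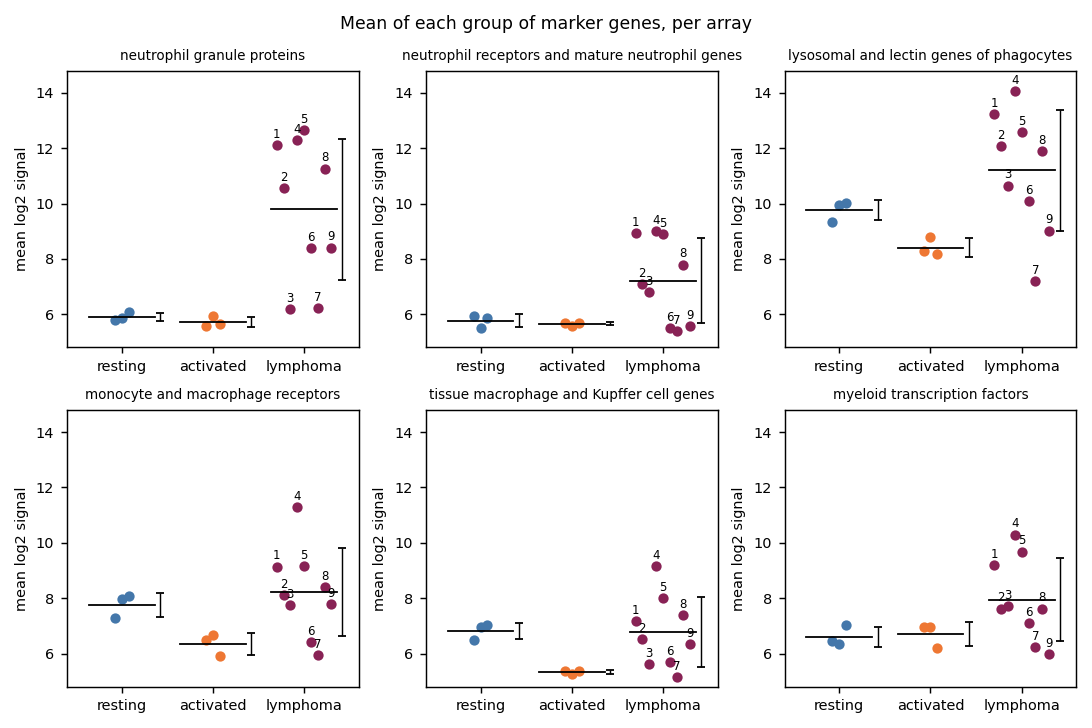
Mean log2 signal (y axis) over the genes of each role, 1 panel per role, for resting T cells, activated T cells and lymphomas, 1 point per array. Horizontal lines are group means, vertical bars are 1 SD on either side, and lymphomas carry their number. The granule panel spreads the lymphomas from 6.18 to 12.67, and in the tissue macrophage panel the resting arrays (6.48 to 7.02) lie within the range of the lymphomas (5.14 to 9.15).

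Among the granule genes, S100a8 and S100a9 encode the subunits of calprotectin, an abundant protein of the neutrophil cytosol. S100a8 stood at 6.77, 6.66 and 6.57 in the resting arrays, at 5.47, 5.00 and 5.00 in the activated arrays, and at 13.73, 13.05, 6.06, 14.17, 14.73, 9.32, 6.73, 13.41 and 10.02 in mPTCL 1 to 9. S100a9 stood at 5.00, 5.99 and 6.97 in resting and at the floor in all 3 activated arrays, and at 13.85, 12.94, 5.83, 14.11, 14.93, 9.37, 7.10, 13.51 and 10.08 in the lymphomas. Both ran in the same order over the 9 lymphomas, with mPTCL 5 highest and mPTCL 3 lowest, and all 9 lay above the activated arrays. For S100a8, mPTCL 3 lay below every resting array.

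Ngp, a granule protein of the cathelicidin family found in bone marrow neutrophils, kept that order of lymphomas. It was at 7.61, 6.78 and 6.88 in resting, at 7.73, 7.80 and 7.79 in activated cells, and at 13.28, 12.41, 6.53, 13.54, 14.55, 8.88, 7.41, 13.15 and 9.91 in mPTCL 1 to 9. Thus 7 lymphomas were above every normal array, and mPTCL 3 and 7 were within or below the normal range. Lcn2, lipocalin, which binds the iron carriers of bacteria, was at the floor in all 6 normal arrays and in mPTCL 3 and 7, and at 11.90, 11.16, 13.22, 13.59, 6.89, 11.87 and 8.27 in mPTCL 1, 2, 4, 5, 6, 8 and 9. Camp, the cathelicidin antimicrobial peptide, ran from 5.00 in mPTCL 3 through a median of 10.79 to 12.42 in mPTCL 5.

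Ltf, lactoferrin of the specific granules, departed from the shared order. Its values were 5.46, 6.82 and 5.34 in resting and 6.32, 6.89 and 6.24 in activated cells, and 11.64, 11.09, 6.23, 11.23, 11.73, 7.24, 5.78, 12.01 and 13.65 in the lymphomas. The highest was mPTCL 9, in which S100a8, S100a9, Ngp and Lcn2 all ranked sixth of 9. Mmp9, gelatinase B, departed too, at 13.20 in mPTCL 1 and 13.11 in mPTCL 6, with the other lymphomas between 5.08 and 9.20 and the normal arrays between 5.00 and 6.14. Its second probe set gave 12.01 and 11.85 in the same 2 lymphomas and at most 8.90 in the others. Mmp8, neutrophil collagenase, was highest in mPTCL 4 at 10.75 and mPTCL 1 at 10.07, with a median of 8.49 over the lymphomas.

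Azurophil granules, which precursors make first, were represented by a peroxidase and a protease. Mpo, myeloperoxidase, was at 5.88, 5.00 and 6.24 in resting, 5.73, 7.19 and 7.36 in activated cells, and 10.58, 8.37, 5.37, 12.19, 13.10, 6.12, 5.87, 10.04 and 6.27 in mPTCL 1 to 9. Elane, neutrophil elastase, was at 5.86, 5.00 and 5.00, then 5.00, 5.82 and 5.00, then 8.67, 6.78, 5.00, 10.44, 10.89, 6.41, 5.96, 8.55 and 6.10 in the same order. Both were highest in mPTCL 5 and mPTCL 4. Over mPTCL 1, 2, 4, 5 and 8, the highest and lowest values differed by 4.73 for Mpo and 4.11 for Elane. Of the other 9 genes of the list, Mmp9 had a larger range (5.49) and 8 had ranges of 0.93 (Ltf) to 2.42 (Lcn2). These are differences between single arrays with no replicate check.

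Chil3 (Ym1), a chitinase-like protein made by neutrophil precursors and by some macrophages, was the only marker for which every lymphoma lay above every normal array. Its values were 5.00, 7.19 and 7.06 in resting, 5.00, 5.30 and 5.11 in activated cells, and 14.59, 13.38, 11.26, 15.26, 15.14, 11.01, 7.26, 12.98 and 9.16 in mPTCL 1 to 9. In mPTCL 7 it cleared the highest resting array by a small step, and in mPTCL 3, which had little of the other granule genes, it was more than 4-fold above.

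Of 5 receptors and other genes of mature neutrophils, 4 passed the 4-fold line in mPTCL 5, 3 each in mPTCL 1 and 4, 2 in mPTCL 3, 1 each in mPTCL 2 and 8 and none in mPTCL 6, 7 and 9. Cxcr2, the chemokine receptor of mature neutrophils, was at the floor in the 6 normal arrays and in 6 lymphomas, and at 6.30, 6.76 and 6.29 in mPTCL 1, 5 and 8. Csf3r, the receptor of the growth factor G-CSF, was at 8.74, 8.42 and 8.38 in mPTCL 1, 4 and 5 and at most 6.18 in normal cells, while it was at the floor in mPTCL 3, 6, 7 and 9. Clec4e (Mincle), a lectin receptor for microbial glycolipids, was at the floor in all normal arrays and in mPTCL 6, 7 and 9, and at 10.52, 7.18, 8.12, 10.83, 8.21 and 8.08 in mPTCL 1, 2, 3, 4, 5 and 8. Its partner Clec4d ran from 5.18 in mPTCL 7 through a median of 7.78 to 10.94 in mPTCL 4, and mPTCL 3 was at 8.80. Il1b, the inflammatory cytokine interleukin 1 beta, was highest in mPTCL 5 at 11.15, with 6.81 to 8.09 in normal cells.

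**Figure D4:**
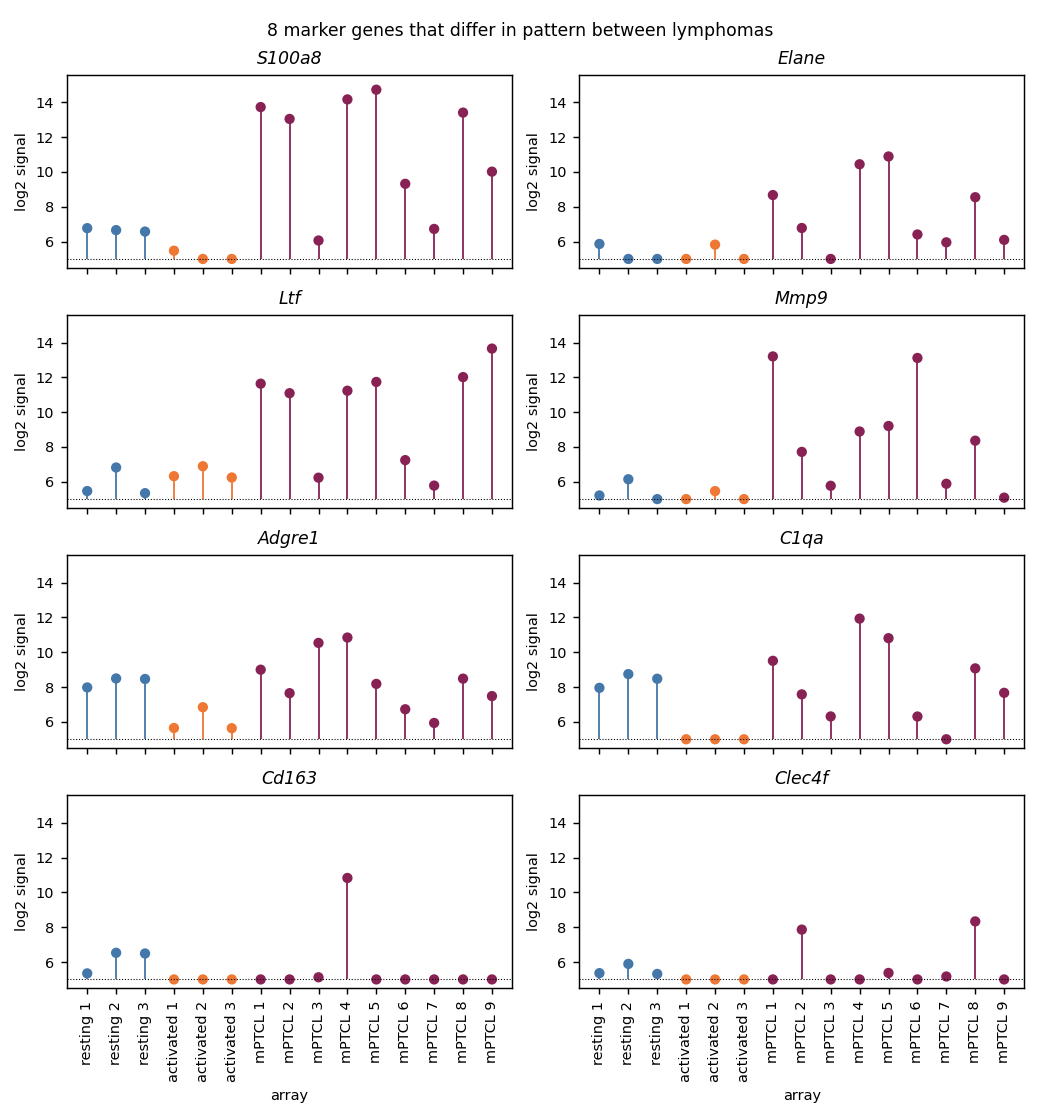
Log2 signal (y axis, dotted line at the floor of 5) of 8 markers in each of the 15 arrays (x axis), blue for resting T cells, orange for activated T cells and purple for lymphomas. Mmp9 is high in mPTCL 1 and 6, Ltf highest in mPTCL 9, Adgre1 highest in mPTCL 3 and 4, Cd163 above normal in mPTCL 4 alone and Clec4f above normal in mPTCL 2 and 8.

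The lysosomal genes were led by lysozyme. Lyz2, lysozyme of macrophages and neutrophils, was at 8.48, 9.96 and 10.07 in resting, 6.53, 7.30 and 6.54 in activated cells, and 14.39, 12.84, 9.71, 14.84, 13.24, 8.32, 6.69, 12.87 and 8.20 in the lymphomas. Thus mPTCL 1, 2, 4, 5 and 8 were above every normal array, mPTCL 6, 7 and 9 were below every resting array and all but mPTCL 7 were above the activated ones. Lyz1 followed it, from 6.08 in mPTCL 7 to 15.01 in mPTCL 4, on a probe set that matches several transcripts. The one Lyz1 probe set without that mark stayed between 5.00 and 6.44 in all 15 arrays, so the 2 lysozyme genes are reported as uncertain and cannot be told apart here. Cd68, a lysosomal glycoprotein of macrophages, was at 11.78 in mPTCL 4 and 10.37 in mPTCL 1, beside 8.18, 8.23 and 8.73 in resting cells. Ctss, cathepsin S, which trims antigen-presenting molecules and is also made by B cells, was high in every normal array (12.98 to 14.41) and fell to 6.99 in mPTCL 7.

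Among the receptors, Csf1r, which monocytes and macrophages need to survive, was at 9.74, 11.13 and 10.88 in resting, 6.76, 7.37 and 7.11 in activated cells, and 13.35, 10.83, 8.87, 14.37, 11.85, 8.05, 7.13, 11.38 and 9.59 in mPTCL 1 to 9. Only mPTCL 1 and 4 were 4-fold above normal. Adgre1 (F4/80), an adhesion receptor that marks mouse macrophages and eosinophils, was at 7.98, 8.50 and 8.46 in resting, 5.65, 6.84 and 5.64 in activated cells, and 9.00, 7.65, 10.54, 10.85, 8.18, 6.72, 5.94, 8.49 and 7.48 in the lymphomas. It was highest in mPTCL 4 and mPTCL 3, the arrays low in Cd3e. Fcgr3, a low-affinity Fc receptor also found on NK cells, had the same leading pair, at 12.19 in mPTCL 4 and 10.63 in mPTCL 3.

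In mPTCL 3 the markers at least 4-fold above normal were Chil3, Clec4d, Clec4e, Adgre1, Fcgr3 and the factor Spi1, at 9.33. Csf1r, Lyz2 and C1qa were not above the resting arrays there. In the same array 3 of 12 mast cell, basophil and eosinophil markers were at least 4-fold above normal, with a summed signal of 24200, beside 417 to 592 in resting, 1330 to 1730 in activated cells and 505 to 8430 in the other lymphomas. In mPTCL 4 there were also 3 such markers, with a summed signal of 8430. The count was 1 each in mPTCL 2 and 8 and 0 in mPTCL 1, 5, 6, 7 and 9. Over all genes, 1.61% passed this line in mPTCL 3 and 3.16% in mPTCL 4. The part of such cells in the values of mPTCL 3 and 4 was not tested.

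Cd14, the co-receptor for bacterial lipopolysaccharide, was highest in mPTCL 5 at 10.67 and mPTCL 4 at 10.32, beside a highest normal array of 7.20. Mrc1, the mannose receptor of tissue macrophages, was at 11.73 in mPTCL 4 and between 5.00 and 7.52 in the other lymphomas, with 6.54, 7.58 and 7.30 in resting cells. Fcgr1, the high-affinity Fc receptor, stayed between 5.42 and 8.25 on the probe set used. Its other probe set, with a lower mean, gave 9.29 in mPTCL 1 and 9.59 in mPTCL 4 and at most 6.36 in normal cells, so the 2 probe sets disagree in those lymphomas.

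Among genes of resident macrophages, C1qa, C1qb and C1qc encode the 3 chains of complement C1q. C1qa was at 7.96, 8.75 and 8.48 in resting cells, at the floor in all 3 activated arrays, and at 9.51, 7.58, 6.31, 11.93, 10.81, 6.31, 5.00, 9.08 and 7.67 in mPTCL 1 to 9. C1qb and C1qc were likewise highest in mPTCL 4, at 11.96 and 10.95. For C1qa, 4 lymphomas were above the resting arrays and 5 below them, so the lymphomas spread to both sides of the resting cells. Slc40a1 (ferroportin), the iron exporter of macrophages, was in no lymphoma above the highest resting array, which was at 9.58.

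Cd163, the scavenger receptor for haemoglobin, was at 5.35, 6.53 and 6.49 in resting cells and at the floor in the activated ones. In mPTCL 4 it was at 10.83, in mPTCL 3 at 5.12 and in the other 7 lymphomas at the floor. Marco, a scavenger receptor of splenic and alveolar macrophages, was also highest in mPTCL 4 at 9.47, with 7.44 in mPTCL 1 as the next. Clec4f, a lectin receptor that in mice marks Kupffer cells, went another way, at 7.86 in mPTCL 2 and 8.34 in mPTCL 8, at 5.36, 5.89 and 5.32 in resting cells and at the floor in mPTCL 4. Vsig4, a complement receptor of Kupffer cells, was at 8.16, 8.07, 7.30 and 7.22 in mPTCL 5, 8, 4 and 2 and at most 5.87 in normal cells. Timd4, a receptor of long-lived resident macrophages, was above the floor in mPTCL 4 and 5 alone, at 6.38 and 6.32.

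Spi1 (PU.1) was at 10.11, 9.35, 9.33 and 9.07 in mPTCL 4, 5, 3 and 1, at 6.78 in mPTCL 2 and 8, and at the floor in mPTCL 6, 7 and 9, beside 5.00 to 6.99 in normal cells. Cebpa was at 10.28 and 9.55 in mPTCL 4 and 5, and at the floor in mPTCL 3 and 7. Cebpb varied least of the 3, between 7.80 in mPTCL 9 and 10.50 in mPTCL 4, and 8 of 9 lymphomas were above every normal array.

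Markers of other cell types differed between the same lymphomas. Of 14 B cell markers, 10 were at least 4-fold above normal in mPTCL 5, 8 in mPTCL 1 and 1 each in mPTCL 3 and 9, with a summed signal of 1200 to 92200 in the lymphomas, 6380 to 8420 in resting and 3500 to 9240 in activated cells. Of 7 erythroid markers, 6 passed in mPTCL 9, 4 in mPTCL 8 and 2 in mPTCL 5, and 2 of 8 hepatocyte markers passed in mPTCL 8. Over all genes, 1.17% (mPTCL 7) to 3.16% (mPTCL 4) passed the same line. The summed signal of 9 T cell identity genes was 7200 in mPTCL 4, 10600 in mPTCL 5 and 16600 in mPTCL 3, up to 48700 in mPTCL 7, and 66500 to 96300 in the normal arrays. The part of any of these in the levels of the myeloid markers was not tested.

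Activation in vitro was compared first, to see which markers separated the 2 kinds of normal T cell. Of the 36 markers tested, 11 fell (30.6%, against 4.23% of all genes tested) and 1, Lgals3, rose (against 8.45%). At an unadjusted limma p under 0.05, 12 were lower and 2 higher (against 21.5% and 21.3%). The median change was -0.43 over the markers and 0.02 over all genes. By role, 4 of 7 tissue macrophage genes, 3 of 5 lysosomal genes, 3 of 6 receptors and 1 of 11 granule genes fell, and none of the 4 neutrophil receptor genes or 3 factors passed the test.

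Among macrophage genes, C1qa fell by 3.39 ± 0.25 (SE, n = 3 and 3; at least 10.5-fold, limma adjusted p = 3.92e-04), C1qb fell by 2.85 ± 0.40 and C1qc fell by 2.87 ± 0.29. Slc40a1 fell by 3.69 ± 0.50 (at least 12.9-fold, adjusted p = 0.0029). Csf1r fell by 3.51 ± 0.38 (11.4-fold, adjusted p = 0.0014), and its 3 probe sets all had lower values in activated cells. Adgre1 fell by 2.27 ± 0.38 (adjusted p = 0.0063) and Mrc1 by 1.40 ± 0.35 (adjusted p = 0.0243). Lyz1 fell by 4.42 ± 0.70 (adjusted p = 0.0050), Lyz2 by 2.72 ± 0.47 (adjusted p = 0.0071), Ctss by 1.00 ± 0.15 and S100a8 by 1.51 ± 0.21 (adjusted p = 0.0032). The Lyz1 value came from a probe set that matches several transcripts, so its fall and that of Lyz2 cannot be told apart.

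In each of these 11 genes the resting and activated arrays did not overlap. That held for 12 of the 36 markers downward and 2 upward, against 23.3% of all genes in either direction. Lgals3, galectin 3, a sugar-binding protein of macrophages that activated T cells also make, was at 7.15, 7.08 and 6.48 in resting and 8.86, 9.69 and 9.21 in activated cells, a rise of 2.35 ± 0.30 (5.11-fold, adjusted p = 0.0023). The call of Mrc1 was lost without resting replicate 2 or 3 or activated replicate 2 or 3 (adjusted p = 0.0651, 0.0748, 0.0755 and 0.0833), and that of Ctss without resting replicate 1 or activated replicate 2, where its change was -0.86 and -0.93. Over all genes, 1006 were higher and 504 lower; centring each array on its median moved the median of all genes to -0.30 and gave 696 and 1321, with 14 markers lower. No marker was called when all 15 arrays were fitted together (8 at an unadjusted limma p under 0.05), where the spread of the lymphomas enters the error.

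Other macrophage genes of a list moved the same way in part. For the counts that follow, 4.23% of all genes tested fell and 8.45% rose on activation. Of 19 tested, 6 fell and 1 rose, among them Cd5l, a protein secreted by tissue macrophages, by 3.13 ± 0.40 (adjusted p = 0.0023), Fcna, a ficolin, by 2.48 ± 0.41 and the prostaglandin-degrading enzyme Hpgd by 2.24 ± 0.46, while Gpnmb rose by 3.33 ± 0.32. Of 16 other monocyte genes, 2 fell (Clec4n by 2.86 ± 0.41 and Treml4 by 1.80 ± 0.40) and 1 rose (Itgam, 1.43 ± 0.37). Of 30 other neutrophil genes, 1 fell (G0s2, by 2.36 ± 0.28) and 1 rose (Gfi1, 2.07 ± 0.27). Tyrobp, the signalling adaptor of myeloid and NK cell receptors, fell by 1.97 ± 0.28 (adjusted p = 0.0036). Of 14 B cell markers, 1 fell, and none of the 14 was at the floor in all arrays of either group. Of 10 endothelial and stromal markers tested, 5 rose, with a summed signal over 14 such genes of 2690 to 3380 in resting and 4230 to 4820 in activated cells, and Dcn and Sparc at the floor in every resting array. The part of such cells in the changes was not tested.

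**Figure D5:**
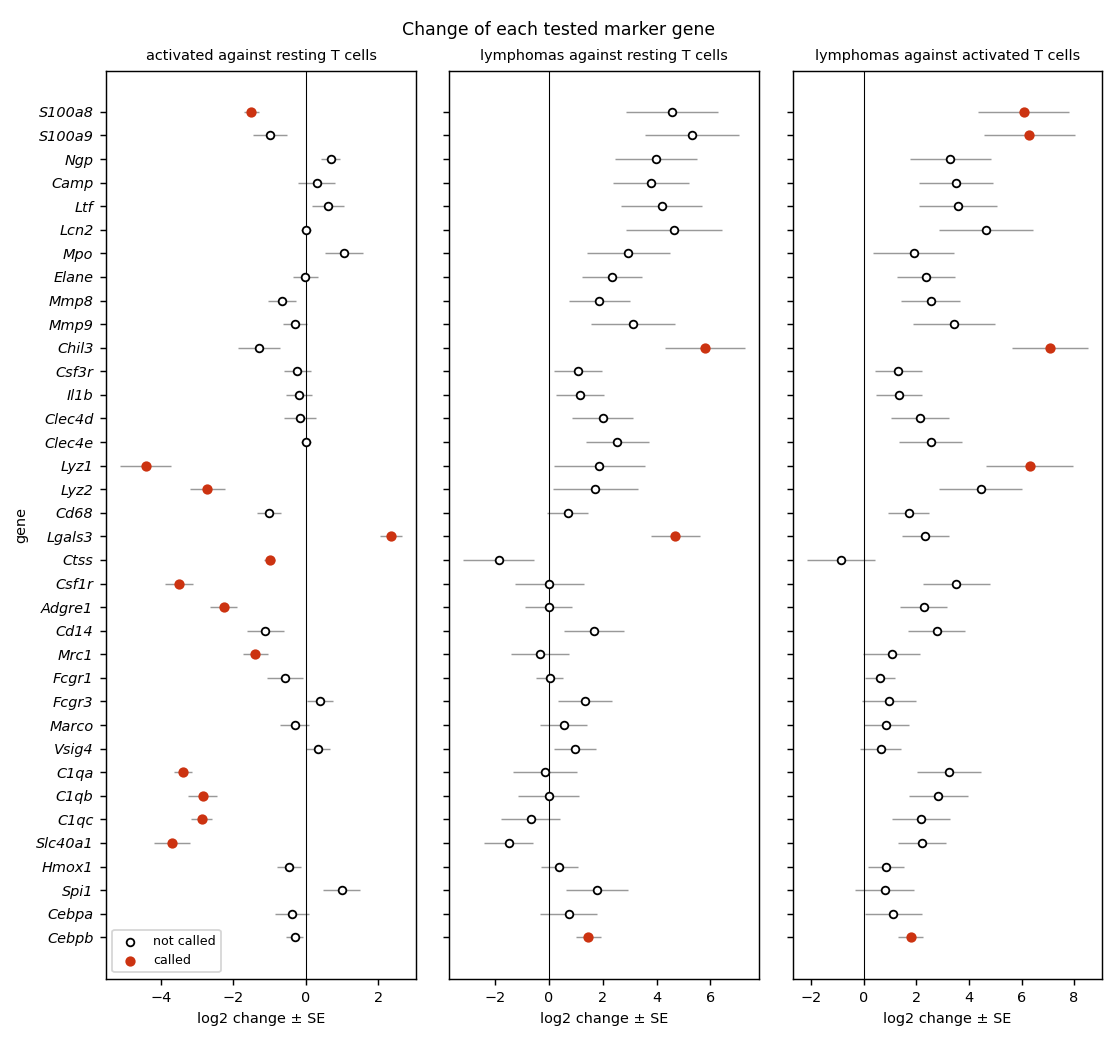
Change in mean log2 signal with its standard error (x axis) for each of the 36 markers tested (y axis), 1 panel per comparison, with called genes filled. The 11 calls to the left in the first panel lie among lysosomal, receptor and macrophage genes and S100a8, and the granule genes in the other panels lie to the right with wide errors.

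Lymphomas as a group were then compared with resting cells. Granule genes had the highest median change of the 6 roles (3.98), and 1 of the 11 passed the test. Of 36 markers, 3 were called higher (8.33%, against 7.03% of all genes) and 0 lower (against 6.84%), a share near the background in this fit. Markers that needed lymphoma arrays to pass the filter had little room for a lower call, and they also enter the medians by role. Every granule gene but Ngp, and so Chil3, is among them. Over all genes, 837 were higher and 814 lower, and 602 and 1048 with median centring, which gave 4 markers higher. The 3 were Chil3, by 5.81 ± 1.48 (SE, n = 9 and 3; at least 56.1-fold, limma adjusted p = 0.0175), Lgals3 by 4.70 ± 0.90 (26.0-fold, adjusted p = 0.0038) and Cebpb by 1.47 ± 0.48 (2.77-fold, adjusted p = 0.0476). The lymphoma and resting arrays did not overlap for Chil3 and Lgals3, 2 of 36 markers, against 8.36% of all genes. At an unadjusted limma p under 0.05 there were 9 markers, all of them higher, against 15.7% of all genes higher and 17.4% lower at that p.

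Lgals3 was at 12.42, 13.09, 11.31, 13.68, 11.33, 13.29, 8.86, 11.15 and 9.30 in mPTCL 1 to 9, and mPTCL 7 and 9 were within the range of the activated cells. Cebpb was at 7.70, 7.68 and 7.95 in resting, 7.79, 7.49 and 7.11 in activated cells, and 9.86, 9.04, 8.84, 10.50, 10.14, 9.57, 8.66, 8.79 and 7.80 in the lymphomas, so that mPTCL 9 overlapped the resting arrays. Its second probe set stayed between 5.00 and 6.93 in all arrays.

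S100a9 differed by 5.31 ± 1.74 (adjusted p = 0.0507), S100a8 by 4.58 ± 1.72 (0.0808), Lcn2 by 4.66 ± 1.78 (0.0858), Ltf by 4.19 ± 1.51 (0.0696) and Ngp by 3.98 ± 1.54 (0.0886), none of which passed. Median changes by role were 3.98 for granule genes, 1.57 for neutrophil receptor genes, 1.73 for lysosomal genes, 0.03 for monocyte and macrophage receptors, -0.00 for tissue macrophage genes and 1.47 for the factors, against -0.02 over all genes. Csf1r (0.02 ± 1.27), Adgre1 (0.00 ± 0.87) and C1qb (-0.00 ± 1.14) had lymphoma means at the resting level, with lymphomas on both sides.

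These calls rest on few arrays. Without mPTCL 3 and 4, the arrays low in Cd3e, 8 markers were called higher (S100a8, S100a9, Ngp, Camp, Ltf, Lcn2, Chil3 and Lgals3; 22.2%, against 9.09% of all genes) and Cebpb was not (limma adjusted p = 0.0514). Without mPTCL 3 alone there were 9 (25.0%, against 7.85%) and without mPTCL 7 there were 7 (19.4%, against 6.72%). Of the 11 granule genes, mPTCL 3 was the lowest or tied lowest lymphoma for 7 and mPTCL 7 for 4. Leaving out either therefore raises the lymphoma means of the genes counted. Without any 1 of the 3 resting arrays Lgals3 was the single call (2.78%, against 3.78% to 3.97%), with Chil3 at an adjusted p of up to 0.0994. Array weights gave 13 markers (36.1%, against 11.5%) and all 15 arrays in 1 fit gave 7 (19.4%, against 8.11%). Cebpb kept its call in 12 of 28 alternatives and lost it, among others, without any 1 of mPTCL 1, 2, 4, 5, 6 and 8.

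Against activated cells the same lymphomas differed in more markers, though the activated arrays lay lower for many. Of 36 markers, 5 were called higher (13.9%, against 7.04% of all genes) and 0 lower (against 8.28%), and 19, all higher, were at an unadjusted limma p under 0.05 (against 16.4% of all genes higher and 19.2% lower). The 5 called were Chil3, by 7.09 ± 1.45 (SE, n = 9 and 3; at least 136.2-fold, adjusted p = 0.0054), S100a9 by 6.30 ± 1.73 (at least 78.9-fold, adjusted p = 0.0223), S100a8 by 6.09 ± 1.73 (at least 68.0-fold, adjusted p = 0.0253), Lyz1 by 6.30 ± 1.67 (at least 79.0-fold, adjusted p = 0.0191) and Cebpb by 1.78 ± 0.48 (3.44-fold, adjusted p = 0.0207). Lyz1 was read on a probe set that matches several transcripts. Its probe set without that mark showed no rise, at 5.72 to 6.44 in activated cells and 5.00 to 5.95 in lymphomas. For 4 markers (Chil3, S100a8, S100a9 and Cebpb) the arrays did not overlap, against 9.77% of all genes. The median change was 2.31 over the markers and -0.08 over all genes. Markers that needed lymphoma arrays to pass the filter, Chil3, S100a8 and S100a9 among them, enter this median. They had little room for a lower call here either. Over all genes 838 were higher and 986 lower, and 1036 and 893 with quantile normalisation or 1114 and 661 with median centring, each of which gave 8 markers higher.

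The macrophage genes that separated the 2 normal states had large differences that did not pass: Csf1r 3.52 ± 1.27 (limma adjusted p = 0.0644), C1qa 3.25 ± 1.20 (0.0707), C1qb 2.84 ± 1.13 (0.0882) and Lyz2 4.44 ± 1.58 (0.0623). Without mPTCL 3 and 4, 8 markers were called (22.2%, against 9.22% of all genes), with Camp, Lcn2 and Cd14 added. Without mPTCL 3 alone there were 8 (22.2%, against 7.71%) and without mPTCL 7 there were 14 (38.9%, against 7.02%). Among the lymphomas, mPTCL 7 was lowest or tied lowest in 28 of 40 markers and mPTCL 3 in 16. Without any 1 of the activated arrays Chil3 was the single call (2.78%, against 3.89% to 4.02%). Array weights gave 24 markers (66.7%, against 10.9%) and all 15 arrays in 1 fit gave 9 (25.0%, against 8.05%). The 2 lymphoma comparisons share the lymphoma arrays. Chil3 and Cebpb were called in both, with the losses given above.

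Other genes of the same cells gave few calls in these comparisons. Over all genes tested, 7.03% were higher and 6.84% lower than in resting cells, and 7.04% and 8.28% than in activated cells. Of 30 other neutrophil genes, 1 was higher in lymphomas than in resting cells (Ltb4r1, a leukotriene receptor, by 2.88 ± 0.93, limma adjusted p = 0.0475) and 0 were called against activated cells, with median changes of 1.75 and 1.70. Ltb4r1 was at 9.52, 7.89, 5.06, 9.55, 8.66, 9.02, 8.62, 7.58 and 5.00 in mPTCL 1 to 9, and at 5.00, 6.97 and 6.38 in activated cells. It was thus high in mPTCL 6 and 7, where Csf3r and Clec4e were at the floor. Of 16 other monocyte genes, 1, Ms4a6c, was lower against each normal state, with changes of -4.60 ± 1.28 and -4.32 ± 1.29. Ms4a6c was between 12.47 and 13.40 in all normal arrays and, unlike Csf1r, was not called lower on activation. In mPTCL 5 it was at 13.87, above every normal array, and in the other lymphomas between 6.14 and 9.79. Of 19 other macrophage genes, none passed in either comparison, with median changes of 0.06 and 0.70. Tyrobp was higher than in activated cells by 5.91 ± 1.49 (adjusted p = 0.0147), with values of 11.25 to 13.65 in 7 lymphomas and 6.40 and 6.25 in mPTCL 6 and 7. Counted per lymphoma, 19, 9, 2, 20, 19, 2, 1, 11 and 0 of 32 other neutrophil genes were at least 4-fold above normal in mPTCL 1 to 9. Over all genes, that share ran from 1.17% in mPTCL 7 to 3.16% in mPTCL 4. For 16 other monocyte genes the counts were 11, 2, 1, 11, 6, 0, 0, 1 and 0, with mPTCL 1 and 4 highest, and for 23 other macrophage genes they were 4, 0, 0, 7, 2, 1, 1, 1 and 0.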

How the data were processed

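RNA from 15 samples was hybridised to 1 oligonucleotide array each. The authors deposited MAS5 signal intensity, not on a log scale, from Affymetrix Expression Console, with version 1.1 named for lymphomas only, per the submitters' processing notes. Every array had a 2% trimmed mean of 500, so a value is relative to its own array. For normal cells a 3′ IVT kit was used, per the labels' protocols; for lymphomas no kit is named in the sources used here. No detection calls were used.

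Intensities under 32 were set to 32 before taking log2. Probe sets with 1 gene symbol (34958) were kept, and those with several (932) or none (9211) were not. For each of 18193 genes the probe set with the largest mean log2 value was read. Testing covered 11902 genes that reached 100 in 3 or more arrays. Groups came from the labels. limma 3.58.1 in R 4.3.3 (lmFit, eBayes with a trend) was run on the arrays of the groups compared, with Benjamini-Hochberg adjustment over all genes tested, and the code was tested on simulated data. "At least" marks a fold where only the lower group has arrays at the floor.

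All 42 genes could be named, and of each other list the called genes with the largest changes, up to 3 per direction. The markers and lists were chosen with earlier results of these data known. Alternatives covered the floor (16 or 64), an offset of 16 in place of it, the low-value filter, scaling, probe set rules, a joint fit of 15 arrays, eBayes without the trend, array weights, calls by adjusted p alone, a replicate block, each array left out, and mPTCL 1, 4 and 5 left out. Leaving out mPTCL 3 and 4 was chosen after seeing the data.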

Additional observations from a re-analysis of the deposited data

Results flagged for a closer look

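Over 46 sets of lymphoma values tested for a single distant array, 2 had one, where chance alone gives about 1 in 20. The number flagged is thus near what chance gives. Cd163 was at 10.83 in mPTCL 4 and at most 5.12 in the other lymphomas, 7 of them at the floor. Mrc1 was at 11.73 in mPTCL 4 and at most 7.52 in the others. Both are genes of tissue macrophages, and both were highest in the lymphoma with Cd3e at the floor. The cause was not tested.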

How the results depend on the processing

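Activated against resting cells, 11 markers fell and 1 rose and both counts stayed within 1.5 times in the alternatives that kept all arrays, except that all 15 arrays in 1 fit gave 0 and 0 (8 markers at an unadjusted limma p under 0.05); leaving out each array gave 9 to 13 lower and 1 to 2 higher. S100a8 lost its call with a floor of 64 and Ctss with quantile normalisation, both by the fold, and Mrc1 with no filter on low values (adjusted p = 0.0735). Against resting cells, 3 markers were higher in lymphomas, 7 with all arrays in 1 fit, 13 with array weights, 8 without mPTCL 3 and 4, and 1 to 9 when each array was left out. Against activated cells, 5 were higher, 8 with quantile normalisation or median centring, 3 without probe sets that match several transcripts, 9 with all arrays in 1 fit, 24 with array weights, 8 without mPTCL 3 and 4, and 1 to 14 when each array was left out. Without the probe sets that match several transcripts, S100a8 had none left. The remaining Lyz1 probe set, at most 6.44 in any array, did not pass the filter on low values. Without mPTCL 1, 4 and 5 the counts were 2 and 5. The counts of markers 4-fold above normal in each lymphoma, and the means by role, kept within 1.5 times or 1 SD in the floors, scalings and probe set rules tried. For other changed counts the cause was not tested. The same replicate numbers did not pair the normal arrays (correlations of -0.01, 0.05 and -0.01). With the replicate block 10 markers fell and 1 rose on activation, and 5 and 7 were higher in lymphomas against resting and activated cells. In the lymphoma comparisons this block let only mPTCL 1 to 3 set the change, matched to normal arrays by number alone. It therefore cannot check those calls over 9 lymphomas. Under the block, S100a8 and S100a9 lost their calls against activated cells (limma adjusted p = 0.0751 and 0.082). Cebpb lost its call against resting cells (0.075) and Mrc1 on activation (0.062). With no filter on low values, S100a8 against activated cells was at 0.0533.

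Of single markers, none of the 20 calls turned in direction. Changes near 0 that did not pass the test turned as follows. On activation, Camp was at -0.026 with median centring (-0.066 to 0.76 when each array was left out), Elane at 0.12 with a floor of 16 and 0.084 with 16 added (-0.29 to 0.27), Mmp9 at 0.078 as the mean of its probe sets (-0.52 to 0.049) and Clec4d at 0.18 and 0.11 with the floor of 16 and with 16 added (-0.60 to 0.26). Leaving out each array gave -0.49 to 0.11 for Csf3r, -0.51 to 0.13 for Il1b, -0.53 to 0.13 for Marco, -0.74 to 0.15 for Cebpa and -0.92 to 0.002 for Fcgr1. In lymphomas against resting cells, Csf1r was at -0.10 with median centring, -0.11 as the mean of its probe sets, -1.28 without mPTCL 1, 4 and 5 and -0.27 without mPTCL 3 and 4 (-0.45 to 0.45 when each array was left out). Adgre1 was at -0.12 with median centring, and -0.51 and -0.68 without those 2 sets of lymphomas (-0.31 to 0.30). C1qa was at 0.008 with quantile normalisation (-0.61 to 0.26), and C1qb at 0.11 with a floor of 64, 0.15 with quantile normalisation and 0.13 as the mean of its probe sets (-0.50 to 0.37). Fcgr1 was at -0.086 with median centring and -0.077 with the replicate block, which rests on mPTCL 1 to 3 (-0.15 to 0.20 when each array was left out). Without mPTCL 1, 4 and 5, Cd68 was at -0.14, Marco at -0.39, Cebpa at -0.42, Hmox1 at -0.22 and Fcgr1 at -0.41 against resting cells, and Marco at -0.076, Spi1 at -0.26 and Cebpa at -0.037 against activated cells. Ctss was at 0.076 against activated cells with the replicate block, which rests on mPTCL 1 to 3.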
